A study of Mus musculus with 29 samples.

Results

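Primary abdominal neuroblastomas of TH-MYCN mice were compared by their signal for Th and Dbh, which encode tyrosine hydroxylase and dopamine beta-hydroxylase. Each of 24 tumour arrays was given a score, the mean log2 signal of both genes, and arms were chosen by this measured score: the 8 tumours of highest score (high-score tumours) were set against the 8 of lowest score (low-score tumours), 16 of the series' 29 arrays. The other 8 tumours are called middle tumours, and 5 bone marrow arrays served only as a reference for signal in another tissue. Th and Dbh defined the arms, so their values are descriptive and all differences below concern other genes. A difference is an association with the score and not the effect of a treatment.

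The animals were labelled as strain 129X1/SvJ, and every tumour came from a mouse with the TH-MYCN transgene, in which a tyrosine hydroxylase promoter drives MYCN in the sympathoadrenal lineage and tumours resembling human neuroblastoma arise. Caspase-8, a protease that starts apoptosis downstream of death receptors, was wild type in 7 of the tumour donors and deficient in 17. The high-score arm held 4 wild type and 4 deficient tumours, the middle 2 and 6, and the low-score arm 1 and 7. Of the 5 bone marrow arrays, 2 were labelled wild type and the others deficient, and the bone marrow ranges below pool both genotypes. The labels give neither the cells in which caspase-8 is lost, nor the animals' age, nor whether separate samples mean separate animals, so the p-values reflect only how much these arrays vary.

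Chromaffin cells and sympathetic neurons make catecholamines from tyrosine. Tyrosine hydroxylase carries out the rate-limiting step with tetrahydrobiopterin as cofactor, the product is decarboxylated to dopamine, and dopamine beta-hydroxylase converts dopamine to noradrenaline inside the storage granule. Granules also hold chromogranins, secretogranins, prohormone-processing enzymes and peptides such as neuropeptide Y, which are released with the amines. Neuroblastomas arise from this lineage and usually keep part of this machinery.

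Scores ran from 9.86 to 10.64 (median 10.08) in the high-score tumours, from 9.39 to 9.86 (median 9.62) in the middle tumours and from 8.40 to 9.38 (median 9.001) in the low-score tumours. The boundaries were narrow: deficient tumour 3 entered the high-score arm at 9.8603 and deficient tumour 5 stayed out at 9.8555, while deficient tumour 10 entered the low-score arm at 9.3792 and deficient tumour 12 stayed out at 9.3938. Th lay between 11.11 and 11.91 in the high-score tumours and between 9.33 and 10.78 in the low-score tumours. Dbh lay between 8.08 and 9.37 and between 6.49 and 8.64. The arms were thus apart in Th and overlapped in Dbh. Across the 24 tumours the enzymes were loosely related, with a Pearson r of 0.349 and a Spearman rho of 0.319, given as descriptions over arrays that share their normalization. In bone marrow Th was at 3.79 to 4.70, below every tumour, and Dbh at 6.02 to 6.55, a range that held wild type tumour 1, the tumour of lowest Dbh.

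**Figure D1:**
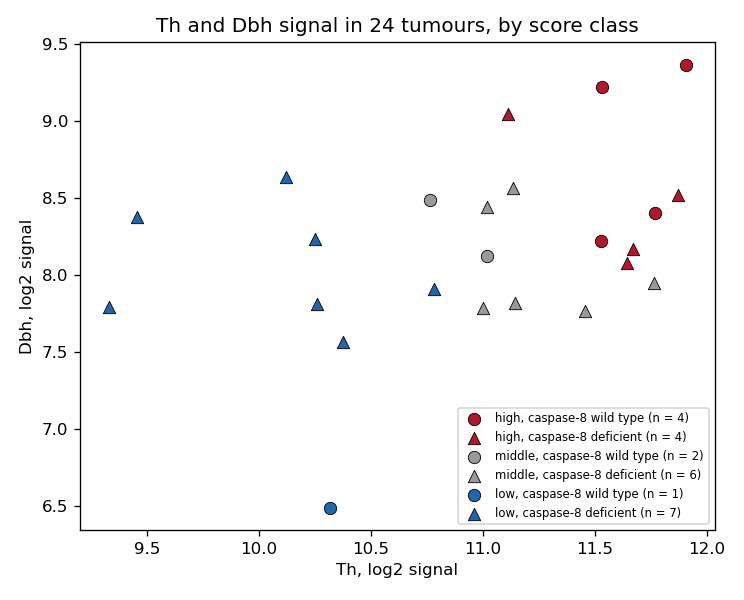
Log2 signal of Th (x axis) and Dbh (y axis) in each of 24 tumours, coloured by score class (high, middle or low) and shaped by caspase-8 genotype. High-score and low-score tumours separate along Th (11.11 to 11.91 against 9.33 to 10.78) and overlap along Dbh (8.08 to 9.37 against 6.49 to 8.64).

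Titles of 3 tumours in each arm carried numbers below 100 and those of 5 carried higher numbers, which are called the lower and higher title series. Xist signal above 8 was found in 4 high-score and 6 low-score tumours. RNA quality was read from control transcripts as the signal of 3' minus that of 5' probe sets, which was 0.636 ± 0.176 (SD, n = 8) in high-score and 0.727 ± 0.150 (SD, n = 8) in low-score tumours, with a two-sided exact permutation p of 0.282. Correlations between tumour arrays over probe sets were 0.969 to 0.993. Casp8 differed by -0.29 (SE 0.22, limma adjusted p = 0.59) and mouse Mycn by 0.15 (SE 0.08, adjusted p = 0.433), both within the spread between tumours. The Mycn probe sets disagreed: tested singly in limma, the others were at 0.50 (SE 0.23, adjusted p = 0.398) and -0.11. Casp8 was at -0.82 in the lower title series and at 0.022 in the higher, and its probe set need not lie in the deleted part of the gene.

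Few genes passed the test, and the secretory genes Npy, Resp18 and Vgf were among those higher in high-score tumours. Of 18191 genes tested, 31 were called at a limma adjusted p under 0.05 (0.17%), 27 higher (0.148%) and 4 lower (0.022%) in high-score tumours. An unadjusted p under 0.05 was found for 2518 genes (13.8%), 1147 higher (6.31%) and 1371 lower (7.54%), against 909.55 expected by chance. Among the called genes 19 had arms that did not overlap, while over all genes 22 were higher without overlap (0.121%) and 13 lower (0.0715%). The middle tumours entered no part of this fit, and their median lay between the medians of the arms for 30 of the 31 genes, all but Atg7. These genes were chosen because their arms lie apart, so a middle median between them is no independent support. In bulk RNA such as this, fewer cells of a type and less RNA per cell cannot be told apart.

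The number of calls depended on single tumours and on covariates. Leaving out deficient tumour 8 gave 7 calls, deficient tumour 16 gave 14, deficient tumours 15 and 11 each gave 18, and deficient tumour 6 gave 20. Among wild type tumours, leaving out tumour 2 gave 13 calls, tumour 6 gave 15 and tumour 5 gave 16. The count was higher, at 54 and 63, when deficient tumour 14 or deficient tumour 3 was left out. The 7 genes called in all 16 of these fits were Crem, Npy, Slc35d3, Insig2, Doc2b, Kdm3a and Celf6, and the other 24 all lost the call without deficient tumour 8. With genotype as a covariate limma called 0 genes at a smallest adjusted p of 0.067, with 1848 at an unadjusted p under 0.05. All 31 differences kept their sign and an unadjusted p under 0.05 in that fit, at 0.848 to 1.11 times their size, and they kept both within deficient tumours alone. In the lower and higher title series 30 and 31 of them had an unadjusted p under 0.05, all with the same sign. The 31 genes were chosen by their p over these same arrays, so such agreement is largely built in and is no independent support. A test of the difference between the title series called 0 genes (1184 at an unadjusted p under 0.05, smallest adjusted p 0.743). When tumours were ranked by Dbh alone, 0 genes were called (1773 at an unadjusted p under 0.05), and when ranked by Th alone 33 were, 20 of them among the 31. With Dbh alone all 31 differences kept their sign and 17 an unadjusted p under 0.05, at 0.132 to 0.905 times their size, and 21 of them shrank by more than 1.5 times.

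Npy, which encodes the sympathetic co-transmitter neuropeptide Y, had the largest difference of the called genes. Its signal was 9.81 to 12.07 (median 10.75) in high-score tumours and 7.30 to 9.38 (median 8.61) in low-score tumours. Every high-score tumour exceeded every low-score tumour, by 2.45 on average (SE 0.35, 5.47-fold, adjusted p = 0.0154). The bone marrow range, 8.23 to 9.27, lay within that of the low-score tumours. Within the lower and higher title series the difference was 2.63 and 2.35, and it was 2.22 within deficient tumours.

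Resp18 and Vgf were the other called members of the granule list described below. Resp18, which encodes a neuroendocrine granule protein, reached 6.68 to 8.56 (median 7.66) in high-score and 4.83 to 6.71 (median 5.84) in low-score tumours, higher by 1.71 (SE 0.28, adjusted p = 0.0171). Vgf, the precursor of several secreted peptides, was at 7.32 to 9.48 (median 8.59) against 5.997 to 7.36 (median 6.89), higher by 1.69 (SE 0.30, adjusted p = 0.0296). For both genes the arms met only at their edges. Doc2b, a calcium sensor of vesicle fusion, was at 5.78 to 8.04 (median 7.25) against 3.86 to 5.80 (median 4.84), higher by 2.08 (SE 0.32, adjusted p = 0.0154). Its highest low-score tumour was just above its lowest high-score tumour. The mean over its probe sets was higher by 1.32. C2cd4b rose by 0.86, and Fkbp1b, which regulates calcium release channels, by 0.83 (SE 0.15, adjusted p = 0.0296). C2cd4b was named after its values were seen.

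Adm, which encodes the vasodilator peptide adrenomedullin, was at 7.39 to 9.32 (median 8.76) in high-score and 5.45 to 7.74 (median 7.09) in low-score tumours. It was higher by 1.67 (SE 0.30, adjusted p = 0.0296), and the arms overlapped at the lowest high-score and the highest low-score tumour. Tmem130 rose by 1.37, Gpat2, a mitochondrial acyltransferase, by 1.33, Slc35d3 by 1.30, the actin-capping tropomodulin gene Tmod1 by 1.22, the splicing regulator Celf6 by 1.14, the inositol transporter gene Slc2a13 by 1.05 and Tent5a by 1.05, with adjusted p-values from 0.0154 to 0.0477. With tumours ranked by Dbh alone Slc35d3 was at 0.34 and Gpat2 at 0.55. Celf6, Slc35d3, Slc2a13 and Tent5a did not overlap between the arms. Tmod1 is abundant in bone marrow, at 9.75 to 10.15, as is Tent5a, at 7.71 to 8.77, whereas Celf6 was there at 3.67 to 4.12 and Slc2a13 at 3.33 to 3.68.

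Crem, a transcription factor gene whose products act at cAMP response elements, had the smallest p of all. Its signal ran from 5.84 to 6.83 (median 6.52) in high-score and from 4.97 to 5.77 (median 5.49) in low-score tumours. The arms did not overlap, and the difference was 1.02 (SE 0.14, adjusted p = 0.0154). With each probe set tested on its own, 2 of its 4 probe sets were called, at 1.02 and 0.76, and the mean over the probe sets was higher by 0.49. The histone demethylase gene Kdm3a, a known target of the hypoxia response, rose by 0.55 (SE 0.08, adjusted p = 0.0154) and Insig2, a regulator of sterol synthesis, by 0.43 (SE 0.07, adjusted p = 0.0154), both without overlap. Crem, Kdm3a and Insig2 were named after their values were seen, outside the rule for named genes.

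**Figure D2:**
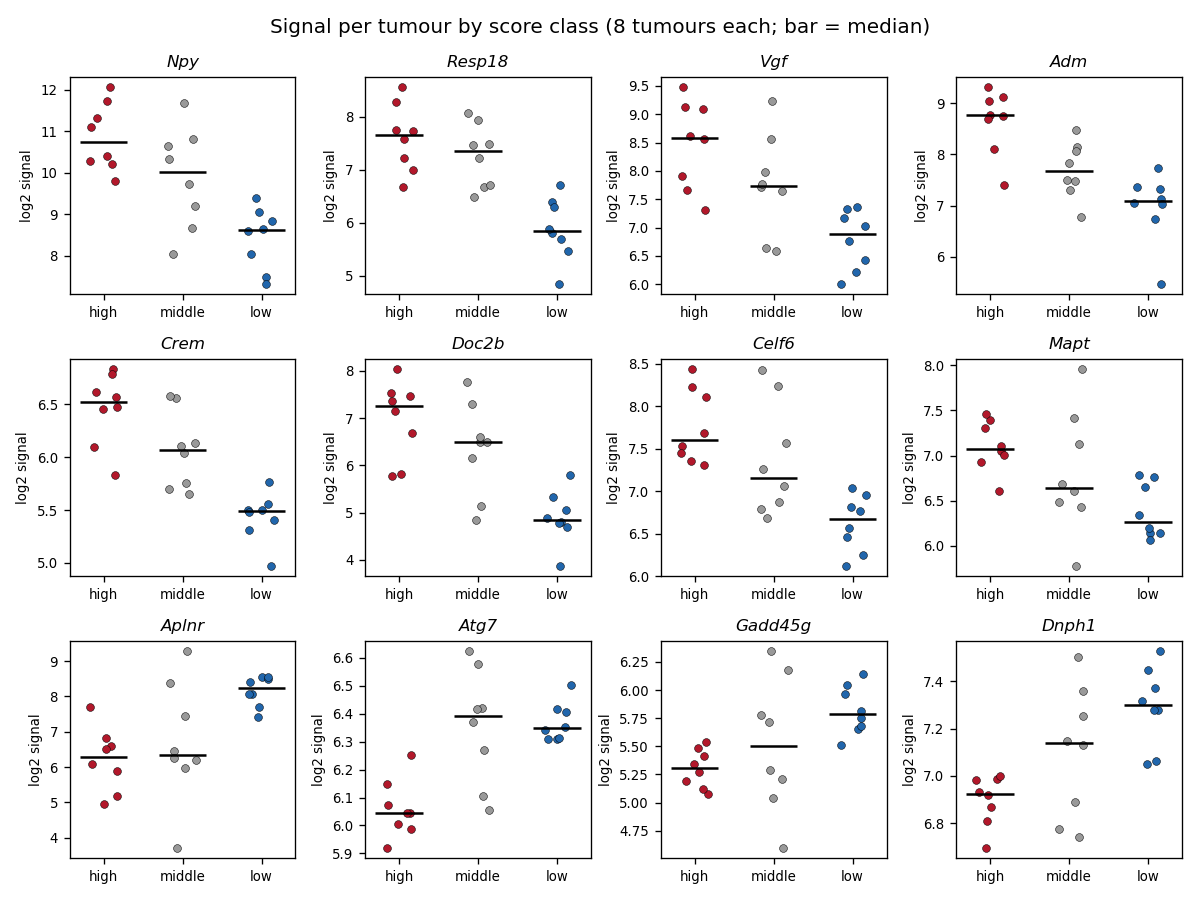
Log2 signal of 12 called genes in each tumour (points) by score class, with the class median as a bar (8 tumours each). Npy runs from 9.81 to 12.07 in high-score and from 7.30 to 9.38 in low-score tumours, and the middle tumours spread across both ranges.

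Promoters are shown for the gene of largest difference and for secretory and neuronal genes whose windows hold the core of the cAMP response element, the site to which Crem products bind. RefSeq sequences (GRCm38.p6) of the 250 bases before the start are given 5' to 3' on the gene's own strand, with matches to searched motifs in capitals. The windows are chr6:49822460-49822709, plus strand, for Npy, chr9:59578087-59578336, plus strand, for Celf6 (the first of its windows), and chr1:79440027-79440276, minus strand, for Scg2, a secretogranin gene described below.
Npy: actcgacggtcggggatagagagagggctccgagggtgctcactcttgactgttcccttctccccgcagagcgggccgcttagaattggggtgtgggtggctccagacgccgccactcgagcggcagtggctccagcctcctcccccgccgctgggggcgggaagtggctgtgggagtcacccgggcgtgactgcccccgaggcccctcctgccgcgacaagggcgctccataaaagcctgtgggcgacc
Celf6: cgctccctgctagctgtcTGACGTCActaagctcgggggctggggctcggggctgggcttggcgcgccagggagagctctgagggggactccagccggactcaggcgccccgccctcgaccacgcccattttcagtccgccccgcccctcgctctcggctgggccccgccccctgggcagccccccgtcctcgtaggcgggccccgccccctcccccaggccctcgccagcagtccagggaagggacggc
Scg2: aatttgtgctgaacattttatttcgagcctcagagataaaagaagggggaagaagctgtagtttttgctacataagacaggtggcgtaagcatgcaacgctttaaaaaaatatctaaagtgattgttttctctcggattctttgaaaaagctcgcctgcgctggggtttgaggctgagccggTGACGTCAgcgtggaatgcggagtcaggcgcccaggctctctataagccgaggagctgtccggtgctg

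In Celf6 the match begins 232 bases and in Scg2 68 bases before the start, and the Npy window holds none of the motifs searched. Of the 31 called genes, 23 had a window by symbol. TGACGTC, the cAMP response element core, was found on either strand in 2 of them (8.70%), Celf6 and Ccdc173, and in 3.16% of the 27025 genes with a window. CACGTG, an E-box to which MYC family proteins bind, was found in 3 (13%), Atg7, Gadd45g and Dnph1, and in 6.86% of all genes. ACGTG, the core of the hypoxia response element, which CACGTG contains, was found in 7 (30.4%) and in 18.5% of all genes. These are matches of letters in a short window, and the shares were not compared by a test.

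Genes of the chromaffin granule and of prohormone processing mostly had higher means in high-score tumours. Of 19 measured, 18 had a higher mean in high-score tumours, 3 were called (Npy, Resp18 and Vgf), and 12 had an unadjusted p under 0.05, all higher, where 42.8% of all genes had a higher mean. The median difference was 0.39, against -0.024 over all genes. List means lay between 8.17 and 9.09 (median 8.52) in high-score and between 7.60 and 8.002 (median 7.87) in low-score tumours, without overlap, and between 4.21 and 4.56 in bone marrow. Scg2, which encodes secretogranin II, was at 6.29 to 8.41 (median 7.57) against 4.803 to 6.97 (median 5.89), a difference of 1.63 (SE 0.32) with an adjusted p of 0.0522, and the arms overlapped. It was 0.95 in the lower and 2.04 in the higher title series. Outside the rule, Ptprn, a transmembrane granule protein gene, differed by 1.01 (adjusted p = 0.071), Chga, which encodes chromogranin A, by 0.74 (adjusted p = 0.123) and Chgb by 0.20, while Penk, the enkephalin precursor gene, was at -0.22. The list's median was 0.222 when tumours were ranked by Dbh alone.

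Catecholamine genes other than the defining enzymes went both ways. Of 19 measured, 11 had higher and 8 lower means, 0 were called in limma, 3 had an unadjusted p under 0.05, all higher, and the median was 0.027. Its sign changed in 3 of the alternatives run. Gch1, which encodes the first enzyme of tetrahydrobiopterin synthesis, was at 9.53 to 10.69 (median 9.89) in high-score and 8.61 to 9.91 (median 9.08) in low-score tumours, a difference of 0.83 (SE 0.18, adjusted p = 0.0787). In the fit of single probe sets 1 of its 2 probe sets was called, at 1.11 (adjusted p = 0.0197). With tumours ranked by Dbh alone the Gch1 difference was 0.11. Slc18a1, the granule monoamine transporter VMAT1 gene, differed by 0.74 (SE 0.17, adjusted p = 0.0893), Pcbd1, a recycler of the cofactor, by 0.48 and Cyb561, which passes electrons into the granule for dopamine beta-hydroxylase, by 0.33. Other Slc18a1 probe sets were at 0.097 and 0.049, and the mean over its probe sets was 0.29. Ddc, the decarboxylase gene between both enzymes, differed by -0.04 (SE 0.07), the noradrenaline transporter gene Slc6a2 by -0.02 and Pnmt, for adrenaline synthesis, by 0.11 (SE 0.13), while Maob, for amine breakdown, was at -0.49, all named for their place in the pathway outside the rule.

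**Figure D3:**
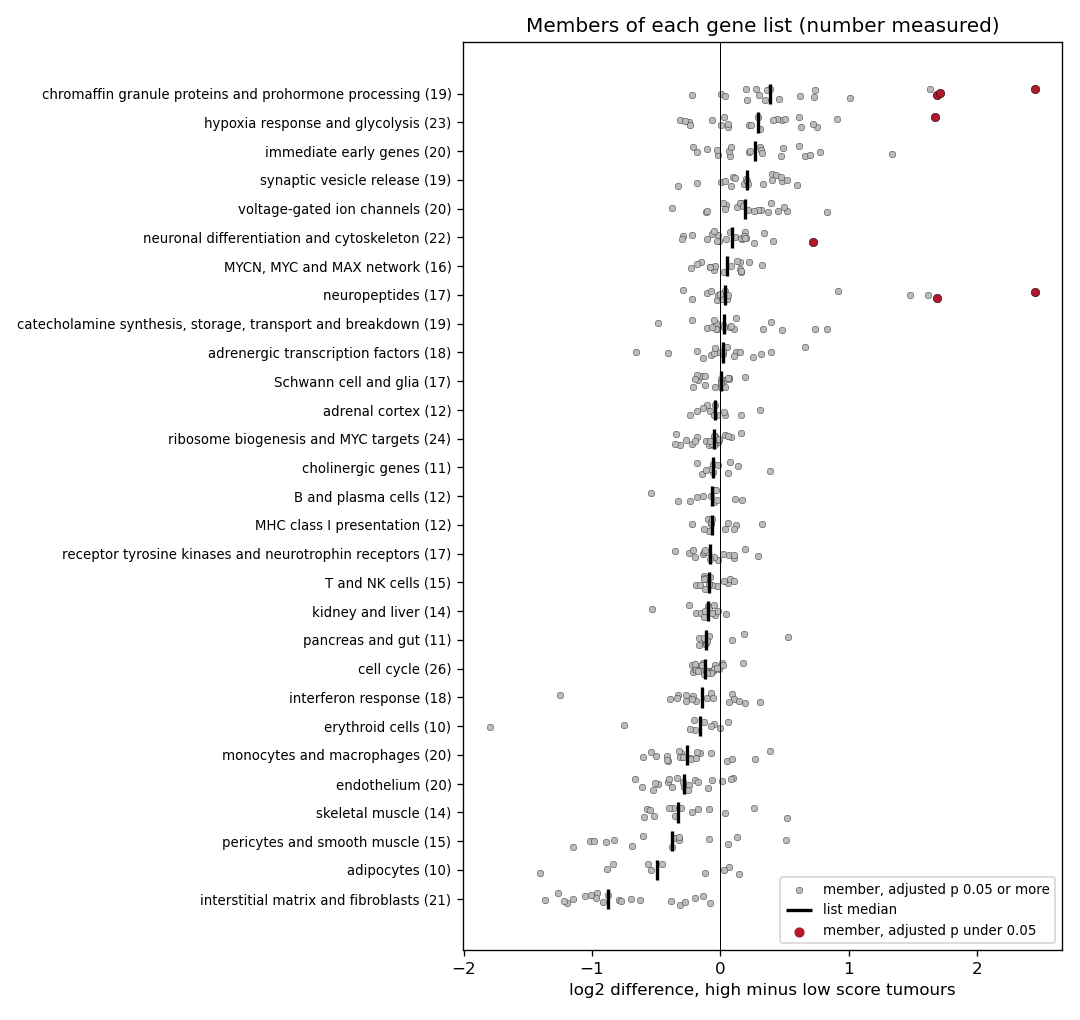
Log2 difference, high-score minus low-score tumours, of each measured member (points) of 29 gene lists, with list medians as bars and called members in red. Medians run from 0.39 for granule genes to -0.875 for interstitial matrix.

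Transcription factors of the adrenergic core circuit went both ways. Of 18 measured, 10 had higher and 8 lower means, limma called 0 of them, and 1 was at an unadjusted p under 0.05. The median difference of 0.022 changed sign in 7 of the alternatives run. The list mean had a median of 9.03 in high-score and 8.98 in low-score tumours, and was between 5.10 and 5.30 in bone marrow. Insm1, a factor of neuroendocrine differentiation, differed by 0.40 (SE 0.14, adjusted p = 0.227), Six3 by -0.18, Tbx2 by -0.41 (SE 0.22) and Nr4a1, also an immediate early gene, by 0.66 (SE 0.37). Outside the rule, Phox2a was at 0.26 (SE 0.18), Hand2 at -0.02 (SE 0.08) and Gata3 at -0.66 (SE 0.45). Gata3 varied strongly within the high-score arm, with an SD of 1.28, against 0.12 for Hand2. When tumours were ranked by Dbh alone Insm1 was at -0.0045, Tbx2 at 0.13 and Nr4a1 at 0.11, and Tbx2 was at 0.12 in the lower title series.

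Of the neuronal differentiation and cytoskeleton genes 1 was called. Mapt, which encodes the microtubule protein tau, was at 6.603 to 7.46 (median 7.08) in high-score and 6.06 to 6.78 (median 6.27) in low-score tumours, higher by 0.72 (SE 0.14, adjusted p = 0.0384), with overlap. The neurofilament genes had small negative differences, Nefm -0.30 (SE 0.07, adjusted p = 0.0991), Nefl -0.29 (SE 0.10) and Nefh -0.22 (SE 0.09), and 13 of the list's 22 measured genes had higher means (median 0.094). Dpysl3, a growth cone protein gene named outside the rule, rose by 0.81 (SE 0.13, adjusted p = 0.0171). Nefl was at 0.062 when tumours were ranked by Dbh alone.

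Synaptic vesicle genes had higher means in 17 of 19 and voltage-gated ion channel genes in 17 of 20, with medians of 0.21 and 0.197. Neither list had a called gene in limma, while 8 and 7 members had an unadjusted p under 0.05, all higher. Syn2, a vesicle phosphoprotein gene, differed by 0.60 (SE 0.17), the synaptotagmin genes Syt4 and Syt11 by 0.48 and 0.47, and Vamp1 by 0.41, with adjusted p-values between 0.141 and 0.191. Among channels, the calcium-activated potassium channel gene Kcnma1 differed by 0.50 (SE 0.14, adjusted p = 0.132), the sodium channel subunit genes Scn3b and Scn8a by 0.45 and 0.29 and the calcium channel gene Cacna1d by 0.32. Another Cacna1d probe set was at -0.20. Vamp1 was at 0.04 in the lower and 0.63 in the higher title series.

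Among other neuropeptides, Nts, the neurotensin precursor gene, was at 3.92 to 7.02 (median 5.26) in high-score and 3.68 to 4.31 (median 3.95) in low-score tumours, a difference of 1.48 (SE 0.36, adjusted p = 0.0986). Adcyap1, for the peptide PACAP, was at 5.24 to 9.30 (median 7.10) against 4.26 to 7.84 (median 5.09), a difference of 1.62 (SE 0.58, adjusted p = 0.224). Both ranges overlapped between the arms, and Adcyap1 was at 0.11 in the lower and 2.53 in the higher title series. The neuropeptide list had a median of 0.038, with 10 of 17 means higher, so the large differences lay in a few of its members. Of 11 cholinergic genes 4 had higher means, with 0 called in limma and 1 at an unadjusted p under 0.05.

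Hypoxia and glycolysis genes had higher means in 18 of 23 measured, with a median of 0.293. Only Adm was called, and 10 members had an unadjusted p under 0.05 with a higher and 2 with a lower mean. Ankrd37, a target of hypoxia-inducible factor, was at 6.05 to 7.11 (median 6.64) against 5.55 to 6.38 (median 5.82), a difference of 0.72 (SE 0.15, adjusted p = 0.0682). Vegfa, the endothelial growth factor gene, differed by 0.76 (SE 0.20, adjusted p = 0.124) and Bnip3, for a mitochondrial death and mitophagy protein, by 0.63 (SE 0.19, adjusted p = 0.164). Another Vegfa probe set was at 0.023, and the mean over its probe sets was 0.39. The glycolytic genes Ldha and Pgk1, named outside the rule, each differed by 0.06 (adjusted p = 0.754 and 0.781). The list's median was 0.0987 when tumours were ranked by Dbh alone.

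Immediate early genes, induced within minutes by growth factors, depolarisation or stress, had higher means in 15 of 20, with a median of 0.271. No member was called in limma, while 7 had an unadjusted p under 0.05, all higher. Fosl2 was at 7.44 to 8.40 (median 7.69) against 6.67 to 7.996 (median 6.95), a difference of 0.77 (SE 0.18, adjusted p = 0.0985). Another Fosl2 probe set was at -0.0050, and the mean over its probe sets was 0.38. Fos was at 7.22 to 10.40 (median 7.75) against 5.45 to 8.37 (median 6.56), a difference of 1.34 (SE 0.43, adjusted p = 0.192), Dusp1 differed by 0.48 and Jun by 0.31. The arms overlapped for each of these. Wild type tumour 2 had the highest Fos signal of the high-score arm, and without it the list's median was 0.137.

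**Figure D4:**
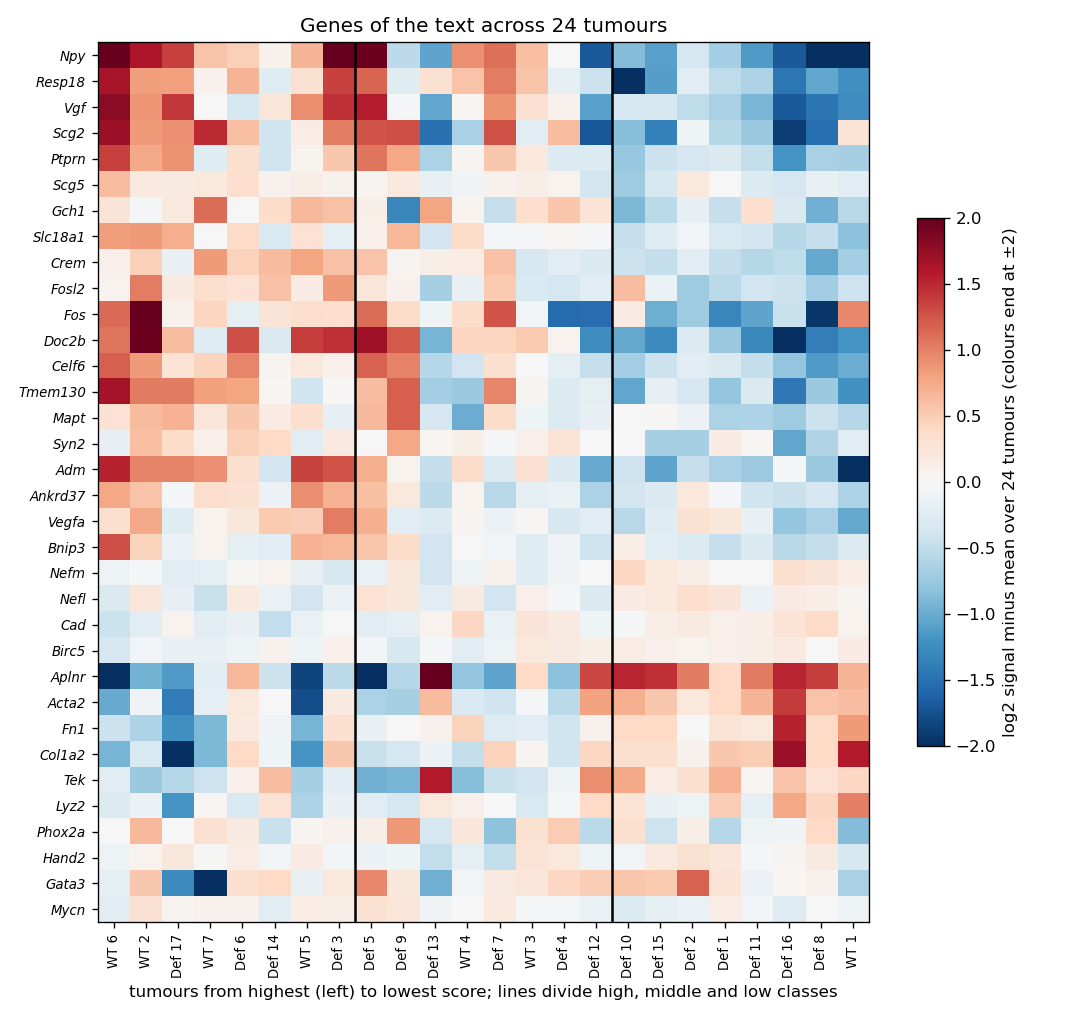
Log2 signal minus the mean over 24 tumours (colour, ending at 2 in either direction) of genes described here, with tumours ordered from highest to lowest score. Npy, Resp18 and Vgf change from red to blue between the high and low classes, matrix genes such as Col1a2 run the other way, and Hand2 and Mycn stay pale throughout.

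Growth-related lists differed little and mostly downward in high-score tumours. Of 26 cell cycle genes 23 had lower means and 4 an unadjusted p under 0.05, with a median of -0.117 and 0 called in limma, where 57.2% of all genes had a lower mean. Birc5, a mitotic regulator, differed by -0.20 (SE 0.06, adjusted p = 0.176), Cdc20 by -0.22, Ccnb2 by -0.19, Plk1 by -0.21 and Aurka by -0.18. For ribosome biogenesis and MYC targets 20 of 24 means were lower, 5 with an unadjusted p under 0.05, with a median of -0.051. Cad, which encodes the enzyme that starts pyrimidine synthesis, was at 8.60 to 9.15 (median 8.91) against 9.05 to 9.47 (median 9.22), a difference of -0.35 (SE 0.08, adjusted p = 0.0986), and 1 of its 3 probe sets was called at -0.54 when probe sets were tested singly. Bop1 differed by -0.35, Wdr43 by -0.22, Rrp9 by -0.27 and Nhp2, of the same process, by -0.30. Another Bop1 probe set was at 0.16, and the Bop1 mean over probe sets was -0.096. The MYCN, MYC and MAX network had 9 higher and 7 lower means, with Mxd1 at 0.32 and Mxi1 at 0.23.

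The 4 called genes that were lower in high-score tumours were Aplnr, Gadd45g, Dnph1 and Atg7. Aplnr, the apelin receptor gene of endothelial and progenitor cells, was at 4.96 to 7.69 (median 6.30) in high-score and 7.43 to 8.56 (median 8.24) in low-score tumours, a difference of -1.94 (SE 0.32, adjusted p = 0.0171) with slight overlap. It was at -0.97 in the lower and -2.53 in the higher title series, and at -1.39 as the mean of its probe sets. Gadd45g, a stress response gene, differed by -0.52, the nucleotide hydrolase gene Dnph1 by -0.39 and the autophagy gene Atg7 by -0.31, with adjusted p-values from 0.0296 to 0.0384. Atg7 and Dnph1 did not overlap between the arms. Atg7 rests on 1 of 4 probe sets, and its mean over them was -0.059. Its median was 6.39 in the middle tumours, above the 6.35 of the low-score tumours, and 6.04 in the high-score tumours. With tumours ranked by Dbh alone Aplnr was at -0.68, Dnph1 at -0.09, Atg7 at -0.058 and Gadd45g at -0.47. With fewer than 5 calls in this direction the next genes by p were Afap1l2, at -0.97 (adjusted p = 0.0513), and Dysf, at -0.64 (adjusted p = 0.0525), which are values and not calls. In the lower title series both were at -0.32.

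Stromal genes mostly had lower means in high-score tumours. All 21 measured genes of interstitial matrix and fibroblasts had lower means, 13 with an unadjusted p under 0.05, and the median was -0.875, while 0 were called in limma. The list mean was between 6.44 and 8.24 (median 7.23) in high-score, 7.66 and 8.92 (median 7.76) in low-score tumours and 5.77 and 6.45 in bone marrow. Col1a2, a collagen I chain gene, was at 8.54 to 11.20 (median 10.07) against 10.76 to 12.39 (median 11.12), a difference of -1.26 (SE 0.35, adjusted p = 0.132). Col5a2 differed by -1.22 (SE 0.34), the fibronectin gene Fn1 by -0.97 (SE 0.24) and Thbs2 by -0.70 (SE 0.20), and the arms overlapped in each. The list's median was -0.36 in the lower and -1.19 in the higher title series, and -0.519 within deficient tumours.

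Pericyte and smooth muscle genes followed, with 12 of 15 means lower, 8 with an unadjusted p under 0.05, 0 called in limma and a median of -0.375. Acta2, smooth muscle actin, differed by -1.15 (SE 0.27, adjusted p = 0.0986), Tagln by -1.01 (SE 0.27), Notch3 by -0.60 and Cspg4 by -0.35. Other Acta2 probe sets were at -0.11 and -0.15. The 3 members with higher means, named outside the rule, were Kcnj8 at 0.52, Higd1b at 0.13 and Abcc9 at 0.058. Acta2 was at -0.30 in the lower and -1.66 in the higher title series. Of 20 endothelial genes 17 had lower means, 2 with an unadjusted p under 0.05, with a median of -0.286 that was 0.078 in the lower title series and 0.0077 within deficient tumours. Tek, the angiopoietin receptor gene, differed by -0.66 (SE 0.17, adjusted p = 0.107), Sox18 by -0.51, Ecscr by -0.40 and Tie1 by -0.37. The 3 endothelial genes with higher means, named outside the rule, were Cldn5 at 0.10, Erg at 0.084 and Flt1 at 0.010. In the lower title series Tie1 was at 0.10, Sox18 at -0.12 and Ecscr at -0.07. Of 20 monocyte and macrophage genes 16 had lower means, among them Lyz2 at -0.60 (SE 0.20), Adgre1 at -0.54, Ms4a7 at -0.50 and Mpeg1 at -0.41. The 4 with higher means, named outside the rule, were Cd163 at 0.39, Cd14 at 0.27, Fcgr3 at 0.094 and Mrc1 at 0.056. The list's median of -0.261 was 0.076 in the higher title series.

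**Figure D5:**
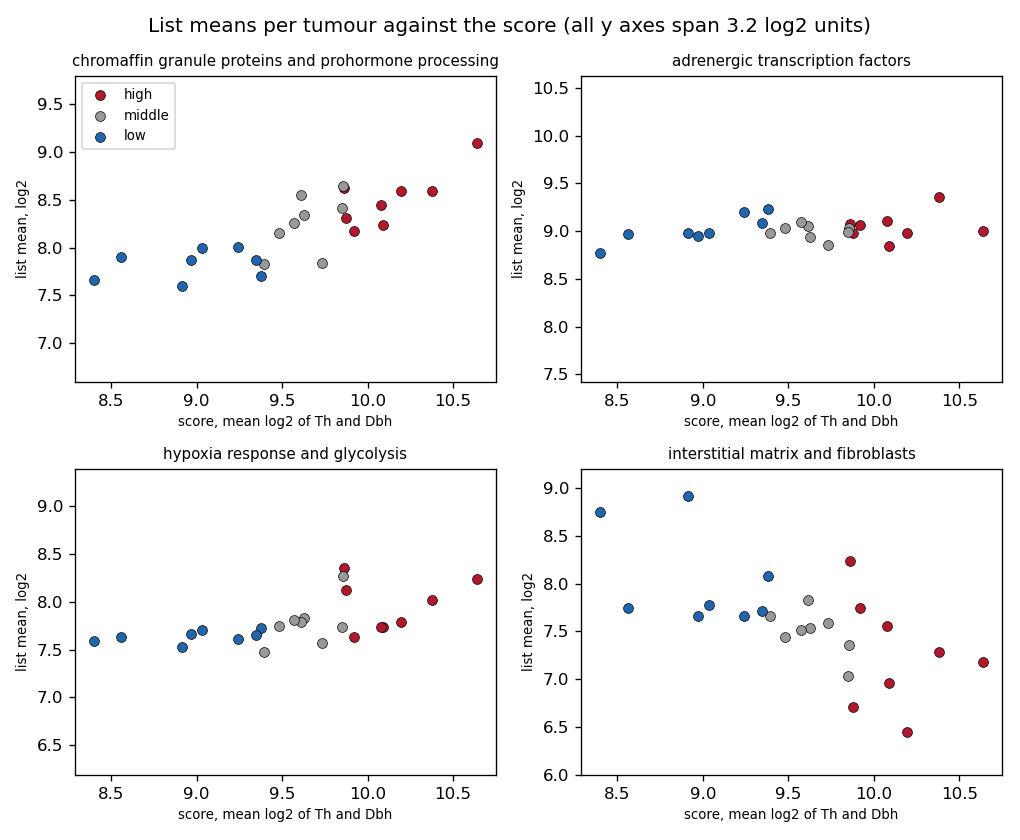
Mean log2 signal of 4 gene lists (y axes, equal spans) against the score (x axis) in 24 tumours coloured by score class. Granule list means lie between 8.17 and 9.09 in high-score and 7.60 and 8.002 in low-score tumours, adrenergic factor means have medians of 9.03 and 8.98, and matrix means are lower in high-score tumours (medians 7.23 and 7.76).

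The matrix list mean moved with the score over the 24 tumours at a Pearson r of -0.668, a description over bulk samples. With that mean as a covariate, an alternative chosen after seeing the data, limma called 0 genes (1983 at an unadjusted p under 0.05, smallest adjusted p 0.0893). All 31 genes, which had been chosen from the same arrays, kept their sign and an unadjusted p under 0.05 there. In that fit Npy was at 2.29, Crem at 1.09, Adm at 1.43 and Aplnr at -1.61, and the granule list's median was 0.383. The stromal differences shrank in the same fit, Col1a2 to -0.26, Fn1 to -0.28, Acta2 to -0.51 and Tagln to -0.30. Col1a2 and Fn1 are members of the matrix list itself, so their shrinkage follows from the covariate, while Acta2 and Tagln are not. Medians changed sign for monocytes and macrophages (0.093), MHC class I presentation (0.13), interferon response (0.014), adrenergic factors (-0.022) and adipocytes (0.242).

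Schwann and glial genes were divided, 9 higher and 8 lower of 17, with a median of 0.0028 whose sign changed under many alternatives. Their 4 members of an unadjusted p under 0.05 were all lower, among them Sox10 at -0.18, Egfl8 at -0.18 and Ngfr at -0.21. Other Sox10 probe sets were at -0.16 and 0.036, and other Ngfr probe sets at -0.013 and -0.0047. The largest positive difference of the list, named outside the rule, was that of Erbb3, at 0.19. Receptor tyrosine kinases had 6 higher and 11 lower means, with Kit at -0.35, the insulin receptor gene Insr at 0.30 and Ntrk2 at -0.24. The other Insr probe sets were at -0.20 and -0.07, and the mean over all 3 was 0.0084. The 8 Ntrk2 probe sets disagreed, with 2 of them at 0.63 and 0.71 and a mean over all 8 of 0.13, and Ntrk2 was at 0.021 in the lower title series. Among the 16 tumours compared, skeletal muscle signal was highest in deficient tumour 11 of the low-score arm, at a list mean of 8.92, and wild type tumour 7 of the high-score arm, at 6.93. Without both, an alternative chosen after seeing the data, 23 genes were called, 13 of them among the 31.

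Across all 24 tumours, the genes most like the score by Pearson r were Bbs4 (0.88), Celf6 (0.84), Fkbp1b (0.83), Baiap3 (0.83), Npy (0.82) and Erc2 (0.82), and those most opposed were Ccdc102a (-0.80), Hspb2 (-0.78), Loxl3 (-0.75) and Nhp2 (-0.75). Bbs4, a ciliary trafficking gene, was at 7.03 to 7.77 (median 7.51) in high-score and 6.68 to 7.02 (median 6.93) in low-score tumours, and rose by 0.55 (SE 0.10, adjusted p = 0.0384). Its arms did not overlap. Baiap3, of dense-core vesicle trafficking, differed by 1.07 (SE 0.22, adjusted p = 0.0627) and Erc2, of the presynaptic active zone, by 0.65 (SE 0.13, adjusted p = 0.0525). Loxl3, of the matrix crosslinking lysyl oxidases, differed by -0.43, Hspb2 by -0.41 and Ccdc102a by -0.38, none of which was called.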

How the data were processed

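Total RNA was extracted with Trizol and labelled cRNA was made by a 2-cycle protocol for Affymetrix arrays, per the labels' protocols. The deposited log2 values were made by the authors with RMA in Partek 6.6, per the submitters' processing notes, and ranged from 1.87 to 14.4. RMA compresses low signal, and the sources used here do not state which arrays were normalized as a set. Of 45101 probe sets 64 were controls, 34945 had 1 symbol, 932 several and 9160 none listed. Symbols of 34741 were kept or updated by Entrez ID with a GRCm38.p6 gene table. Each of 18193 genes was represented by its probe set of highest mean signal (9010 had several).

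The 16 tumours of both arms were compared in R 4.3.3 using limma 3.58.1 (lmFit, eBayes, two-sided, Benjamini-Hochberg over 18191 genes, Th and Dbh left out, no filter on low values). The fit was tested on simulated data. Promoter sequences were from RefSeq. The number of arrays limits the precision. Members and lists were chosen with earlier results of these data known, and lists have no test. Named were Casp8 and Mycn, the 12 called genes of largest difference in each direction (with fewer than 5 calls, 6 of smallest p), 4 members of smallest p per list, and the 6 highest and 4 lowest correlations with the score. Others are said to be outside the rule. Alternatives varied how probe sets were combined, normalization, a filter at mean log2 5, weights, variance model, covariates, score and samples.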

Additional observations from a re-analysis of the deposited data

Results flagged for a closer look

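Of 266 groups of 8 tumours examined, 25 had a highest or lowest tumour set apart from the other 7, by Dixon's test with a critical value of 0.526. Chance gives this in about 1 in 20 groups. In the low-score arm, wild type tumour 1 stood apart with low Adm (5.454, others 6.727 to 7.743), high Ngfr (4.352) and Adgre1 (8.579), and high list means for B and plasma cells (5.346) and MHC class I presentation (8.515). Deficient tumour 10 stood apart in Fosl2 (7.996), Cdc20 (12.15) and Kit (7.548, the lowest), and in the list means of catecholamine genes (7.194, the lowest), erythroid cells (6.184) and kidney and liver (4.035). Deficient tumour 16 had the highest Acta2 (11.04) and pericyte and smooth muscle mean (7.589), deficient tumour 15 the highest Jun (9.248) and deficient tumour 11 the highest skeletal muscle mean (8.923, others 4.171 to 5.133).

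In the high-score arm, wild type tumour 2 stood apart in Fos (10.4, others 7.221 to 8.535), Nr4a1 (9.451) and the immediate early list mean (7.083). Wild type tumour 5 had the highest means of T and NK cells (4.415), MHC class I presentation (9.305, others 6.992 to 7.642) and interferon response (5.896). Wild type tumour 7 had the lowest Ngfr (3.474) and the highest skeletal muscle mean (6.932), wild type tumour 6 the highest Pcbd1 (8.948) and deficient tumour 3 the highest adipocyte mean (8.218).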

How the results depend on the processing

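The 31 calls became 50 among genes of mean log2 5 or more, 61 with probe sets tested singly, 56 with array weights, 420 with the score as a continuous covariate over 24 tumours, 3 with the 12 highest against the 12 lowest scores, and 90 with Dbh from its second probe set (chosen after seeing the data). They became 0 with genotype or, as an alternative chosen after seeing the data, the matrix list mean as a covariate, 0 within the lower title series, within the higher title series and within deficient tumours (1613, 2234 and 1785 at an unadjusted p under 0.05), and 0 with tumours ranked by Dbh alone. The last 4 of these settings change or remove samples. Leaving out 1 tumour at a time gave 7 to 63. Quantile normalization over the tumours gave 28 calls, 71.4% of them higher, against 87.1% of the 31. Counts of 24 to 45 came from the other settings of the full arms. Differences changed sign for Tln1 (-0.019) and Ntrk2 (0.13) as means of probe sets; for Tie1 (0.10), Tbx2 (0.12) and Ntrk2 (0.021) within the lower title series; for Casp8 (0.022) within the higher; and with Dbh alone for Cspg4 (0.013), Nefl (0.062), Insm1 (-0.0045), Jun (-0.029), Mxi1 (-0.00081), Sox10 (0.0036), Foxd3 (0.025) and Tbx2 (0.13). The causes were not tested. Low signal compresses differences. No paired analysis was possible because the labels give no replicate numbers.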

Other observations

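Tested singly, 61 of 45033 probe sets were called. Gnas, which encodes the G protein subunit that activates adenylyl cyclase, had 1 of 5 probe sets called, at 3.51 to 4.40 (median 4.08) in high-score and 2.53 to 3.65 (median 3.15) in low-score tumours, a difference of 0.88 (limma adjusted p = 0.0441). That probe set's signal was low, and the brightest Gnas probe set differed by 0.16 (adjusted p = 0.378). Gnas was named after its values were seen.

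Lists of other cell types gave these values. Of 10 erythroid genes 9 had lower means in high-score tumours, with a list median of -0.162. Alas2, the haem synthesis enzyme of red cells, was lowest at -1.79, while Hba-a1 was at -0.048 and Epb42 at 0.061. Of 18 interferon response genes 12 had lower means, with Rsad2 lowest at -1.25, and 3 of the lower had an unadjusted p under 0.05. The interferon list's median was -0.144, and it was 0.10 among genes of mean log2 5 or more. Of 10 adipocyte genes 7 had lower means, with Adipoq at -1.41 and a list median of -0.495 that was 0.242 with the matrix list mean as a covariate. Adrenal cortex genes were divided, 4 higher and 8 lower of 12, with a median of -0.043. No member of these lists was called in limma.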
